A study of Mus musculus with 18 samples.

Results

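DNA methylation in gonadal fat of control mice was set against that in their hypothalamus, CpG site by CpG site. A site was a member of the comparison when it lay on chromosomes 1 to 19, was listed for both tissues and had at least 20 reads in each control pool. This held for 1364698 of the 1586902 CpG sites listed for both tissues on those chromosomes, and 1985111 sites were listed for at least 1 of the 3 tissues studied. Membership rested on read depth and position, not on methylation.

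The series measured gonadal fat, hypothalamus and liver of male C57BL/6 offspring that were 3 weeks old, with the control samples titled WT, and each tissue and treatment had 3 samples. Dams of the BPA group received bisphenol A at 5 mg per kg per day in corn oil, by oral gavage from day 1 to day 20 after conception, and dams of the control group received corn oil alone. The offspring came from 4 BPA litters and 3 control litters, and the labels do not tie samples to litters or animals. The comparison uses 6 of the 18 samples, 3 control fat and 3 control hypothalamus samples, and the BPA samples of both tissues serve as another set of pools for the same tissue contrast. Every value is the authors' level for a pool of 3 samples, so it carries no error between animals. The pool numbered 0 was read as control from the order of the names in a sample label alone.

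Methylation of cytosine at CpG sites is copied at cell division and differs between cell types mainly outside of CpG islands, at enhancers, gene bodies and the borders of islands. Promoters within islands are mostly unmethylated in every tissue, and exceptions include imprinted genes, where one parental allele is methylated, and some developmental regulators. Gonadal fat holds adipocytes with stromal, endothelial, mesothelial and immune cells, and the hypothalamus holds neurons, glia and vessels. Reduced representation bisulfite sequencing reads CpG-rich fragments between CCGG sites, and it does not separate methylated from hydroxymethylated cytosine, the form that is abundant in neurons. A pool's level is an average over all cells of the tissue, so a different mix of cell types and a different level within 1 cell type cannot be told apart here.

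The 6 promoters printed here show what was read at genes the results return to. Each is 300 bases of RefSeq sequence on GRCm38, from 250 bases before to 50 after the gene start, written 5′ to 3′ on the gene's strand. Capital CG marks a CpG that was called different between the control pools, as defined below, and lower case holds all other bases. Igf2r (chr17:12769657-12769956, minus strand) and Iqcj (chr3:67891970-67892269, plus) carry CpGs with higher methylation in fat. Lep (chr6:29059971-29060270, plus), Pck1 (chr2:173152823-173153122, plus), Dpep1 (chr8:123185985-123186284, plus) and Acsm3 (chr7:119760673-119760972, plus) carry CpGs with lower methylation in fat.
Igf2r: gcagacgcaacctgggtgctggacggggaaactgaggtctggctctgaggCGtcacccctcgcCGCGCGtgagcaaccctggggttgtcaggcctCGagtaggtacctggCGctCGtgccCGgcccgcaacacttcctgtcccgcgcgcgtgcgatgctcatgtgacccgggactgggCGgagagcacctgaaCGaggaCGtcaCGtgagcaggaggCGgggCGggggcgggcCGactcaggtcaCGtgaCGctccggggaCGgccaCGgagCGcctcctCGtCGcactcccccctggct
Iqcj: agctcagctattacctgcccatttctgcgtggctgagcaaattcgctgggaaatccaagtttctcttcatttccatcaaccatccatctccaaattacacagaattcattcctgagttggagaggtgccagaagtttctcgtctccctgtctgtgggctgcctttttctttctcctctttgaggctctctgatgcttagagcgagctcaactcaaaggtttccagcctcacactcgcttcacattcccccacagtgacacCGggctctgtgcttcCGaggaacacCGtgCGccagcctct
Lep: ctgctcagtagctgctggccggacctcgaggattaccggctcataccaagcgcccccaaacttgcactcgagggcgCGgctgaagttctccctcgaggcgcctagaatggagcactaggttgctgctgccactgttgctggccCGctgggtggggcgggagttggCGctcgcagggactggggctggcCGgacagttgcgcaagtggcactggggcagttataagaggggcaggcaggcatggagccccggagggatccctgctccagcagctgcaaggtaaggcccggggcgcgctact
Pck1: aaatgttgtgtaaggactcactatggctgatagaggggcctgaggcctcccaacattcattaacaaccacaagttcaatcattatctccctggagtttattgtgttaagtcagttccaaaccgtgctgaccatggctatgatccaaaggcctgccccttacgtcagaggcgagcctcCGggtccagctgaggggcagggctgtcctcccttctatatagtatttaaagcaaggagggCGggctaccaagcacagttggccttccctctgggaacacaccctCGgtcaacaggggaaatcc
Dpep1: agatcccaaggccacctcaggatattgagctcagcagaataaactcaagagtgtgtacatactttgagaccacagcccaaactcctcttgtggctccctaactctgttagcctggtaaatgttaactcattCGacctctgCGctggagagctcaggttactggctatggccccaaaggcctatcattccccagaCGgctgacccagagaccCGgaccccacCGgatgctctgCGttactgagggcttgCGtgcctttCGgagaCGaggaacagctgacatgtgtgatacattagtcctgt
Acsm3: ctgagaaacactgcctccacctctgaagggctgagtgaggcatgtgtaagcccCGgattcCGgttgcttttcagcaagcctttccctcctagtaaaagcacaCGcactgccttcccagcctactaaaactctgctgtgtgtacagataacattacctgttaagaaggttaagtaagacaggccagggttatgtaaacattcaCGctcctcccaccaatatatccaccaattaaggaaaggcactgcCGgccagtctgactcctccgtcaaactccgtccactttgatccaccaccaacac
Igf2r encodes the receptor that takes up insulin-like growth factor 2 and is an imprinted gene in mouse. Of its 34 CpGs in this window 24 were members and 22 were called, with a mean level over the 24 of 37.0% in control fat and 2.95% in control hypothalamus. The lowest of the 24 sites in fat, at 22.5%, lay above the highest in hypothalamus, at 6.56%. At Dpep1, a membrane dipeptidase gene, all 9 CpGs were members and all were called, with 30.3% in fat and 73.2% in hypothalamus. At Lep, the gene of the adipocyte hormone leptin, 15 of 19 CpGs were members and 4 were called. The mean over these 15 sites was 56.5% in fat and 77.1% in hypothalamus. At Pck1, which makes the glycerol backbone of triglycerides in fat, all 3 member sites were called, with 49.7% in fat and 85.2% in hypothalamus. The Acsm3 window, of a mitochondrial medium-chain acyl-CoA synthetase gene, had 5 called sites of 5, at 27.0% in fat and 78.9% in hypothalamus. The shared start of Iqcj and the Iqschfp readthrough gene had 4 called sites of 4, at 49.98% in fat and 12.9% in hypothalamus. The motif CCGG, which is its own reverse complement, is present in 52.8% of the 32851 promoter windows in the table, and Igf2r holds 3, Iqcj 1, Lep 5, Pck1 1, Dpep1 2 and Acsm3 3.

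Fat and hypothalamus had similar levels at most sites. The median depth per member site was 203 reads in the fat pool and 118 in the hypothalamus pool. The mean level was 47.5% in control fat and 49.5% in control hypothalamus, a difference of -2.05 percentage points, fat minus hypothalamus as throughout. It was -2.22 points between the BPA pools, and on the 19 chromosomes it ran between -2.43 points on chromosome 4 and -1.66 on chromosome 18. The sign depended on the weighting. Pooling all reads within each tissue, which lets each tissue weigh its sites by its own depth, gave 52.9% in fat and 49.9% in hypothalamus, a difference of 2.94 points. Giving a site the same weight in both tissues, by the reads of both pools together, gave -1.79 points.

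The site levels were bimodal in both tissues, with fewer fully methylated sites in fat. Sites over 80% made up 37.8% in fat and 41.4% in hypothalamus. Sites from 20 to 80% made up 20.8% in fat and 18.3% in hypothalamus, and sites under 20% made up 41.3% and 40.2% in fat and hypothalamus. Both tissues were under 20% at 39.3% of the sites and both were over 80% at 34.8%. The most frequent discordant class held 89982 sites that were intermediate in fat and over 80% in hypothalamus, 6.59% of all. The mirror class, over 80% in fat and intermediate in hypothalamus, held 41006 sites. Full switches were rare, with 139 sites over 80% in fat and under 20% in hypothalamus, and 172 sites under 20% in fat and over 80% in hypothalamus.

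**Figure D1:**
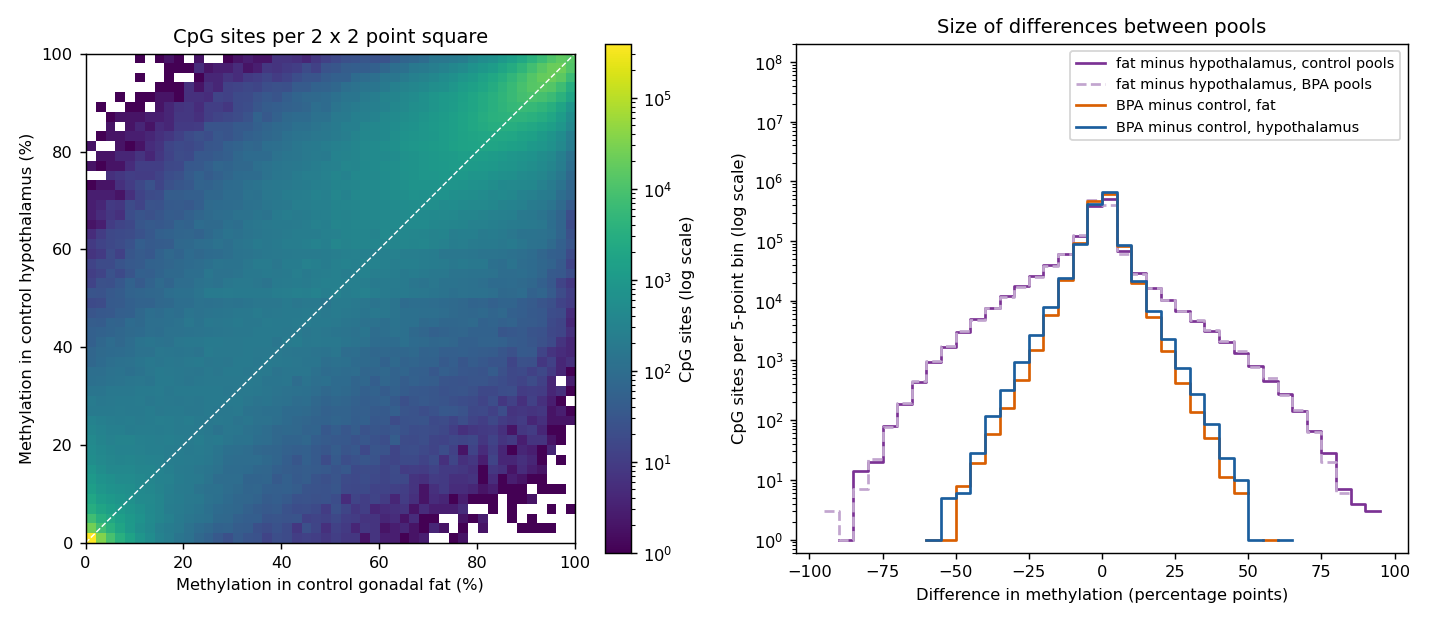
Left, number of member CpG sites by methylation level (%) in control gonadal fat (x) and control hypothalamus (y), in squares of 2 points on a log colour scale, with the line of equal levels dashed. Right, number of sites (log scale) by difference in percentage points for fat minus hypothalamus in control pools and in BPA pools and for BPA minus control within each tissue, where the tissue contrasts spread with an SD over sites of 10.6 (control) and 10.47 (BPA) points and the contrasts within a tissue with 4.35 (fat) and 4.68 (hypothalamus).

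A site was called when Fisher's exact test on the reads of the pools gave a Benjamini-Hochberg adjusted p under 0.05 over all member sites and the levels differed by at least 25 points. This two-sided test compares pooled reads and not animals. Of the 1364698 sites 68915 were called, 5.05%, of which 19628 (1.44% of all sites) were higher in fat and 49287 (3.61%) were lower in fat. The median absolute difference at called sites was 33.0 points. At 5533 sites the difference reached 50 points, 1894 of them higher and 3639 lower in fat.

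The BPA pools, which share no sample with the control pools, repeated the tissue contrast. Of 1328862 member sites with at least 20 reads in all 4 pools 66822 were called between BPA fat and BPA hypothalamus, 5.03%, with 19703 (1.48%) higher and 47119 (3.55%) lower in fat. Of the control calls that could be read there, 65852 of 66518 had the same sign, 67.1% were called again and 0 were called in the other direction. Sites called higher in fat had a median difference of 33.4 points in control pools and 31.3 points in BPA pools, and sites called lower had -32.7 and -30.1 points. The same rule applied to BPA against control within a tissue called 521 sites in fat (0.0392%; 228 higher in BPA, 0.0172%, and 293 lower, 0.022%) and 4 in hypothalamus (0.000301%; 1 higher, 7.53e-05%, and 3 lower, 0.000226%). Across the 1328862 sites the differences of the control pools and those of the BPA pools correlated with r = 0.815, a description over sites that share reads with their neighbours.

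Single sites reached differences near the full scale, and their depth varied. A site within 5 kb of Plekhb1, at 100662663 on chromosome 7, had 95.2% of 272 reads methylated in fat and 2.1% of 10292 reads in hypothalamus, with 97.5% and 1.98% in the BPA pools of fat and hypothalamus. Its hypothalamic depth was far above the 95th percentile of 322 reads. Sites in the gene body of Cpa4, a carboxypeptidase gene, at 30573181 and 30573190 on chromosome 6 had 93.0% and 94.4% in fat, against 2.38% and 6.67% in hypothalamus. In the other direction, a site in Trmt9b at 36511689 on chromosome 8 had 10.0% of 110 reads in fat and 94.8% of 58 reads in hypothalamus, a difference of -84.8 points with a 95% Newcombe interval of -90.3 to -73.4. Such intervals cover counting error only, and reads amplified by PCR without molecular identifiers are not independent molecules.

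Called sites were sparse at gene starts and more frequent in gene bodies and between genes. Within 1 kb of a listed protein-coding start the mean level was 4.47% in fat and 4.76% in hypothalamus, and 0.320% of 354235 sites were called higher and 0.780% lower in fat. In gene bodies farther from a start the mean was 58.0% in fat and 60.2% in hypothalamus, with 2.32% called higher and 4.58% lower. More than 5 kb from any protein-coding gene the mean was 73.7% in fat and 77.1% in hypothalamus, with 1.32% higher and 4.84% lower. Of the called sites 78.6% were lower in fat in this distant class and 66.4% in gene bodies. Median depth in these classes was 190 reads near starts, 201 in gene bodies and 220 in the distant class in fat, against 128, 110 and 121 in hypothalamus. The part of depth in these shares was not tested. Starts on chromosome 18 were not used here, and the gene table gives start and end of each gene without exons, introns or untranslated regions.

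**Figure D2:**
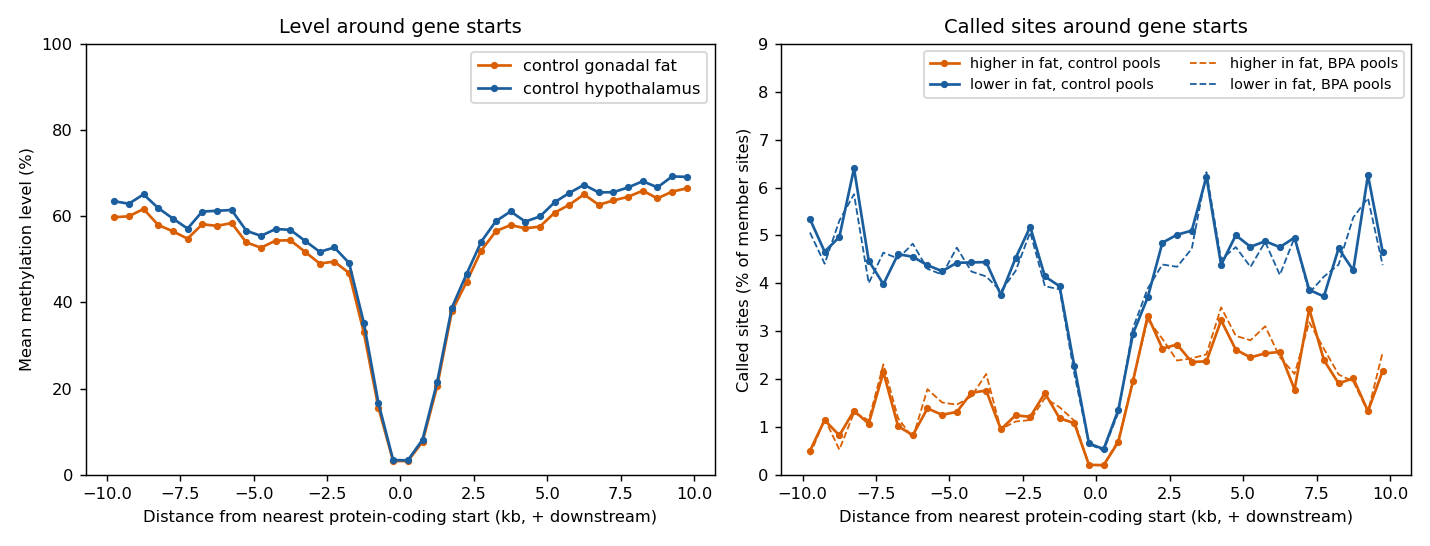
Mean methylation level (%, left) and called sites as % of member sites (right) in bins of 500 bp by distance (kb) from the nearest listed protein-coding start, for control gonadal fat and control hypothalamus, with BPA pools dashed on the right. Levels fell to 3.18% in fat and 3.42% in hypothalamus in the last bin before the start, where 0.207% of sites were called higher and 0.654% lower in fat.

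The direction of the calls also moved with CpG density. Sites with 0 or 1 other member CpG within 100 bp had mean levels of 75.6% in fat and 79.6% in hypothalamus, and 76.3% of their called sites were lower in fat. Sites with 15 or more such neighbours had 2.38% in fat and 2.26% in hypothalamus, and 40.2% of their called sites were lower in fat. In this dense class 711 sites were called higher (0.353%) and 478 lower (0.237%) in control pools, and the shares in the BPA pools were 0.363% higher and 0.258% lower. The small mean difference of this class did not keep its sign, at 0.127 points in control pools and -0.333 in BPA pools.

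Liver of the same series places the called sites. At sites called higher in fat the means were 74.6% in fat, 69.6% in control liver and 38.6% in hypothalamus, and liver was nearer to fat at 78.8% of 19179 sites. At sites called lower in fat the means were 36.5% in fat, 54.7% in liver and 71.6% in hypothalamus, and liver was nearer to fat at 43.1% of 48488 sites. Fat and hypothalamus values chose these sites, so only the liver values are free of the choice.

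Neighbouring called sites formed 3046 regions, 950 higher and 2096 lower in fat. A region held at least 5 called sites of one direction with gaps of at most 200 bp, no called site of the other direction, and calls at no less than 50% of its member sites. Regions had a median of 6 called sites and a median length of 210 bp (higher in fat) and 214 bp (lower in fat). Read in the BPA pools, all 938 higher regions with enough reads kept their sign, as did 2079 of 2080 lower regions, and 88.0% and 85.7% of them still differed by at least 25 points on average. Of the 950 higher regions 67.8% lay in the body of a protein-coding gene, against 54.4% of the 2096 lower ones. Leaving out chromosome 18, 56 of 910 higher regions (6.15%) and 152 of 2028 lower regions (7.495%) lay within 1 kb of a start. Of the member sites there, 354235 lay within 1 kb of a start and 508289 in gene bodies farther from one. Outside gene bodies, 76646 lay within 5 kb and 383076 beyond. A region in the body or within 5 kb was found for 668 of 17215 genes in the higher direction (3.88%) and 1212 in the lower (7.04%), with 132 genes in both. Liver was nearer to fat in 81.5% of the higher regions and 39.2% of the lower regions.

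The regions described are those with the largest summed difference in or near protein-coding genes. The 11 higher in fat lay in gene bodies, and at all 11 the BPA pools gave a difference of the same sign. The longest, in Casz1, a zinc finger factor of heart and neural development (chr4:148952009-148952866), had 68 called of 87 member sites. Its mean level was 38.5% in control fat and 2.68% in control hypothalamus, with 36.9% and 3.99% in the BPA pools of fat and hypothalamus and 9.36% in control liver. The Igf2r region (chr17:12769284-12769906) covers the start of the gene printed above and lies within Airn, the imprinted antisense transcript of Igf2r. Of its 70 sites 53 were called, with 32.0% in control fat and 2.59% in control hypothalamus, 31.9% and 2.78% in the BPA pools, and 20.3% in liver. As background, in mouse the paternal Igf2r promoter is methylated in most somatic tissues, while neurons express Igf2r from both alleles.

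Hoxb3, a homeobox factor of body patterning, had 19 called of 19 sites (chr11:96344233-96344606), with 56.0% in control fat and 3.75% in control hypothalamus, and 16.03% in liver. Its leading site at 96344527 had 68.0% of 75 reads in fat and 0 of 39 reads methylated in hypothalamus, a difference of 68.0 points (interval 53.6 to 77.5, adjusted Fisher p = 3.76e-12). Foxp4, a forkhead factor, had 19 of 19 sites called (chr17:47876885-47877685), at 78.7% in fat and 26.7% in hypothalamus, and its liver level of 81.9% was close to that of fat. Zfpm1, a GATA cofactor of blood and heart development, stood at 69.8% in fat and 25.9% in hypothalamus over 53 sites (chr8:122336460-122337071). Sh2b3, an adaptor that restrains cytokine signalling, stood at 57.2% in fat and 20.6% in hypothalamus over 53 sites (chr5:121828441-121828929), and liver exceeded both at 82.7%.

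Sipa1, a GTPase-activating protein for Rap, had 66.5% in fat and 17.8% in hypothalamus (chr19:5654772-5655161), with 25.7% in liver. The other regions were in Fignl2 (59.6% in fat, 21.7% in hypothalamus), Fam171a2 (42.9% and 9.51%), the thromboxane receptor gene Tbxa2r (61.4% and 25.1%) and Tbkbp1 (51.1% and 21.1%). In liver, Tbkbp1 was at 15.8%, below both tissues, and Fignl2 at 71.8%, above both. The change between BPA and control pools within fat over these 11 regions ran between -6.62 points at Fignl2 and 7.56 points at Tbkbp1, against tissue differences of 29.4 to 52.2 points.

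**Figure D3:**
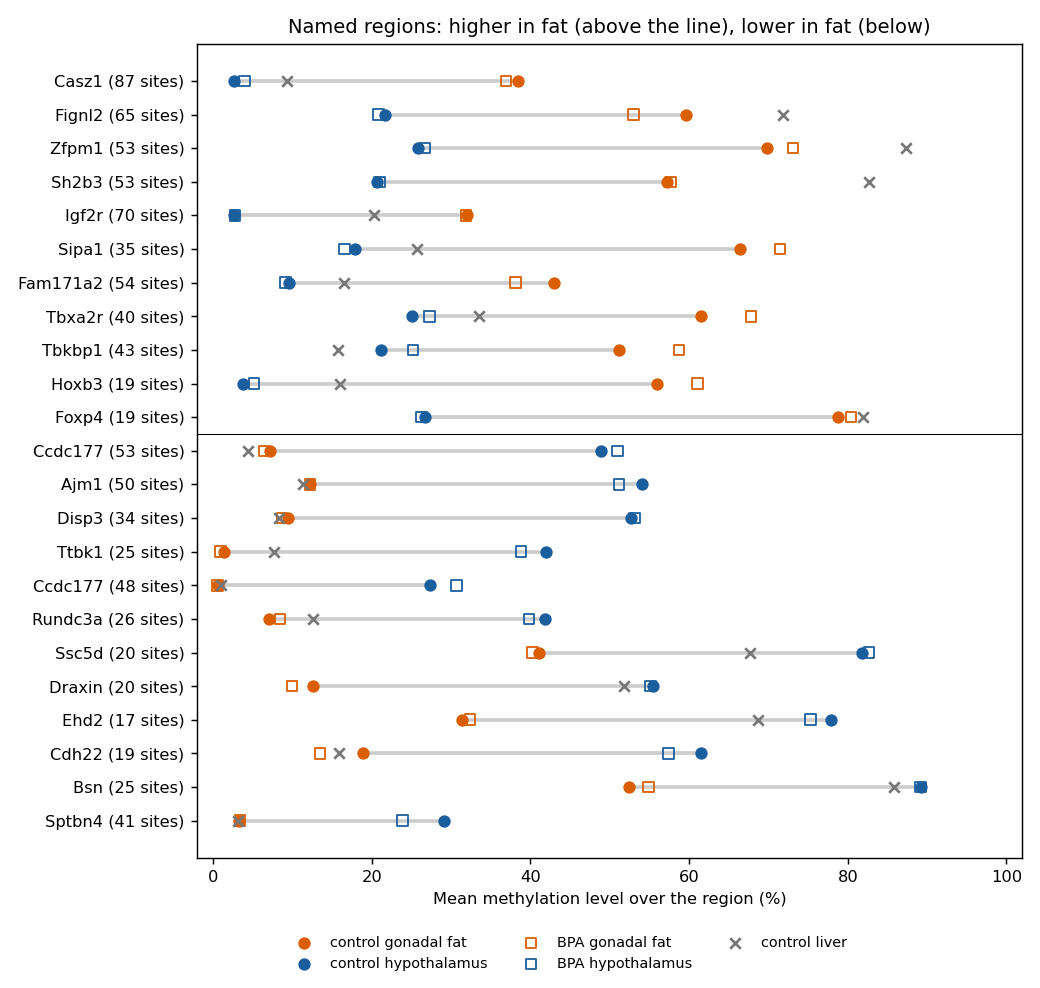
Mean methylation level (%) over each of the 23 named regions in control gonadal fat and control hypothalamus (filled circles), BPA gonadal fat and BPA hypothalamus (open squares) and control liver (crosses). Grey bars join control fat and control hypothalamus, and in each region the BPA square of a tissue sits nearer to its own tissue's control than to that of the other tissue.

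The 12 regions lower in fat with the largest summed difference also lay in gene bodies. Ccdc177, a coiled-coil gene, held 2 of them (chr12:80757484-80757923 and chr12:80758163-80758539). They had 7.18% and 0.623% in control fat, against 48.9% and 27.3% in control hypothalamus, and liver was at 4.38% and 0.980%. Disp3, a Dispatched-family transmembrane protein gene (chr4:148271451-148271789), had 32 of 34 sites called, with 9.43% in fat, 52.6% in hypothalamus and 8.29% in liver. Ttbk1, a tau tubulin kinase of neurons (chr17:46460937-46461582), stood at 1.41% in fat and 42.0% in hypothalamus. Its leading site at 46461291 had 0 of 91 reads methylated in fat and 61.5% of 26 reads in hypothalamus (adjusted Fisher p = 1.58e-11), and the region's mean in the BPA pools was 0.963% in fat and 38.8% in hypothalamus. In these 4 regions fat and liver were both low and hypothalamus was intermediate.

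The same order held at Ajm1, an apical junction component (12.2% in fat, 54.1% in hypothalamus, 11.4% in liver), Rundc3a (7.08%, 41.8% and 12.6%), Cdh22, a cadherin of brain (18.8%, 61.5% and 15.9%), and Sptbn4, the spectrin of axon initial segments (3.32%, 29.1% and 3.10%). In 4 other regions liver was nearer to hypothalamus. Draxin, a repulsive axon guidance protein (chr4:148107681-148108365), had 18 of 20 sites called, with 12.6% in fat, 55.5% in hypothalamus and 51.8% in liver. Ehd2, a membrane-shaping ATPase of caveolae that is abundant in fat (chr7:15963980-15964280), had 31.4% in fat, 77.9% in hypothalamus and 68.7% in liver. Bsn, the presynaptic scaffold bassoon (chr9:108106838-108107412), had 52.4% in fat, 89.2% in hypothalamus and 85.8% in liver. Ssc5d, a soluble scavenger receptor (chr7:4927821-4928649), had 41.0% in fat, 81.7% in hypothalamus and 67.7% in liver. At each of these 12 regions the BPA pools gave a difference of the same sign, between -20.5 points at Sptbn4 and -45.2 points at Draxin over all sites of the region. Of the 41 Sptbn4 sites, 30 had at least 20 reads in both BPA pools, and over these the difference was -25.3 points.

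**Figure D4:**
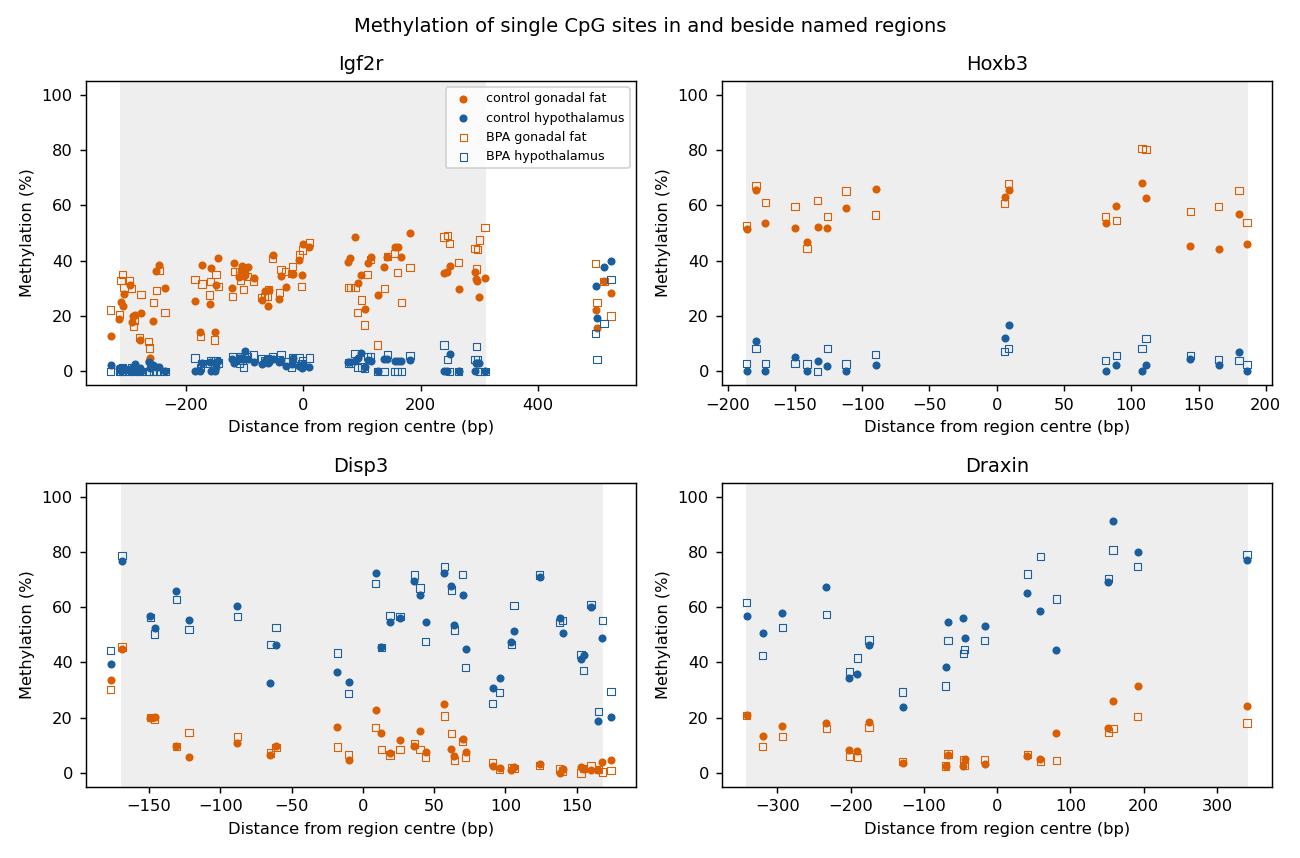
Methylation level (%) of single member CpG sites against distance (bp) from the region's centre at Igf2r, Hoxb3, Disp3 and Draxin, for control gonadal fat, control hypothalamus, BPA gonadal fat and BPA hypothalamus, with the region shaded. At Hoxb3 the 19 fat sites lie above all hypothalamus sites, and at Igf2r 4 sites to the right of the region have overlapping levels.

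The HOX genes, which set position along the body axis and are not expressed in forebrain, had the highest share of called sites in the higher direction among the 18 gene lists examined. Gene windows span the body and 5 kb on either side, and those of neighbouring HOX genes overlap, so each site is counted once per list. Of 3073 HOX sites 370 were called higher (12.0%) and 1 was called lower in fat, beside 1.49% higher and 3.11% lower over all protein-coding genes. A region higher in fat lay at 15 of 39 HOX genes (38.5%, beside 3.88% over all genes), and a lower one at 0 (beside 7.04%). Because the windows overlap, the same region can count for several HOX genes. A site whose level in hypothalamus is below the minimum difference of a call cannot be called lower in fat. The median gene level in control hypothalamus was 3.48% for HOX genes, beside 34.3% over all genes, which limits the lower counts. The BPA pools had 359 higher and 4 lower sites.

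The whole clusters, sites between gene windows included, differed in level. HoxD (chr2:74668225-74765142) had a mean of 12.2% in fat and 2.80% in hypothalamus over 868 sites, with 147 higher and 0 lower sites. HoxB (chr11:96194316-96368254) had 14.8% in fat and 7.35% in hypothalamus, with 103 higher and 3 lower sites. HoxA (chr6:52155367-52260880) had 12.0% and 4.37%, with 93 higher and 0 lower, and HoxC (chr15:102921131-103036856) had 8.95% and 3.91%, with 32 higher and 0 lower. Liver lay between the tissues in each cluster, at 3.75% in HoxD, 10.1% in HoxB, 6.15% in HoxA and 4.89% in HoxC.

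Within the clusters the difference was uneven. The largest gene levels were at Hoxd4 (38.8% in fat, 6.04% in hypothalamus), Hoxa5 (29.0% and 8.09%) and Hoxd3 (24.1% and 3.44%), with 33, 41 and 112 higher sites. The Hoxd3 window takes in Hoxd4. Other HOX genes had close levels with 0 called sites, among them Hoxd1 with 2.99% in fat and 2.82% in hypothalamus, Hoxd13 with 4.27% and 2.99%, and Hoxc13 with 3.34% and 2.80%. The sign at Hoxc13 turned in BPA pools, and that at Hoxd1 turned with the gene body alone. Hoxb2 had the lowest difference of the list, at 3.29% in fat and 5.37% in hypothalamus with 1 lower site, and it was -0.25 points in BPA pools. These 4 genes were chosen after their values were seen.

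**Figure D5:**
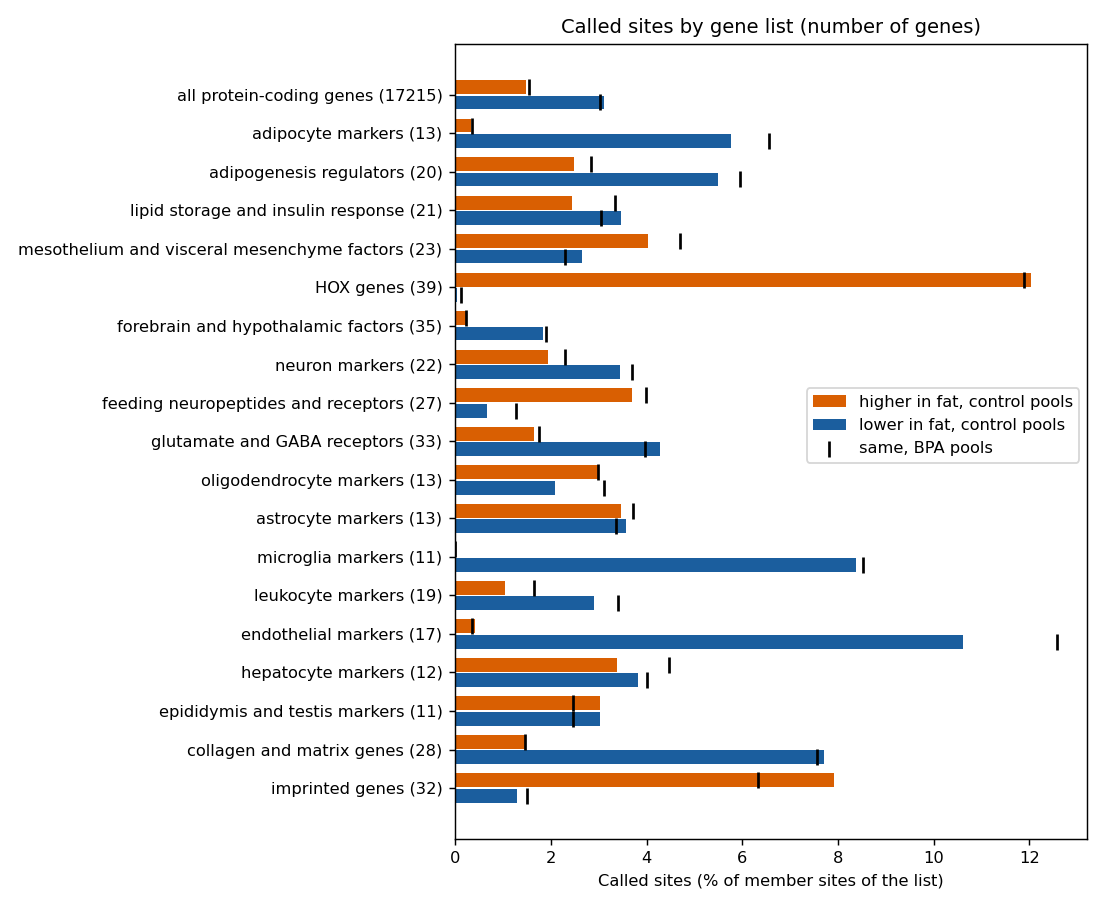
Called sites as % of the member sites of each gene list, higher in fat and lower in fat between control pools (bars), with the same shares between BPA pools (ticks). The HOX list stands at 12.0% higher and 0.0325% lower, the endothelial list at 0.411% higher and 10.6% lower, and all protein-coding genes at 1.49% and 3.11%.

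Imprinted genes also had more sites in the higher direction, 166 of 2096 (7.92%) against 27 lower (1.29%), beside 1.49% higher and 3.11% lower over all protein-coding genes. The median gene level was 50.6% in fat and 38.1% in hypothalamus, and the median difference was 5.97 points in control pools and 4.49 in BPA pools, beside -0.769 points over all genes. Named by their gene difference were Magel2, a ubiquitin ligase regulator, with 76.4% in fat and 56.5% in hypothalamus, Airn with 38.8% and 19.9%, and Mcts2 with 51.6% and 34.6%. None of the 26 sites of Mcts2 reached the 25 points of a call, while 53 of 112 Airn sites were called higher, all in the Igf2r region it overlaps. This region thus supplied 53 of the 166 higher sites of the list. Meg3, a maternally expressed long noncoding RNA, had 63.9% in fat and 51.6% in hypothalamus with 19 higher sites, and Gnas had 39.0% and 31.9% with 25. Peg3 (92.1% and 92.6%) and Snrpn (67.4% and 67.5%) were nearly level, and H19 had 57.3% in fat and 64.8% in hypothalamus. The sign at Snrpn turned in BPA pools and with weighting by reads, and H19 differed by -7.56 points with the flanks and -13.5 in the gene body alone. These last 5 genes were chosen after their values were seen.

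Of the 590 sites of adipocyte markers 34 were called lower in fat (5.76%, beside 3.11% over all genes) and 2 higher (0.339%, beside 1.49%). Of the 13 adipocyte genes with at least 5 member sites 11 had a lower mean in fat, beside 11373 of all 17215 genes, and 1 held a lower region (7.69%, beside 7.04%). Retn, which encodes the adipocyte hormone resistin, had 52.7% in fat and 79.5% in hypothalamus over 6 sites, 4 of them called. Lep had 56.9% in fat, 81.1% in hypothalamus and 71.1% in liver over 29 sites, with 12 lower, and Cidec, a lipid droplet protein, 73.9% and 85.7% in fat and hypothalamus. Lep differed by -24.2 points in control pools and by -15.4 in BPA pools. Fabp4, the fatty acid binding protein of adipocytes, had only 4 member sites, all called lower, at 41.8% in fat, 90.0% in hypothalamus and 85.7% in liver, and was chosen after its values were seen. Adipoq, the adiponectin gene, had 84.5% and 91.1% with 1 lower site, and Lpl was under 1% in both tissues over 37 sites with none called. The tissue labels could be read against methylation only, not against RNA.

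Endothelial markers had the highest share of lower sites, 129 of 1216 (10.6%) with 5 higher, and a median gene difference of -9.37 points in control pools and -7.58 in BPA pools. Eng, the endoglin receptor of TGF-beta, had 53.6% in fat and 74.2% in hypothalamus with 24 lower sites, Robo4 had 61.8% and 80.6%, and Icam2 had 61.2% and 77.9%. Collagen and matrix genes had 187 lower (7.70%) and 36 higher (1.48%) of 2427 sites. Sparc, a collagen-binding matrix protein, had 60.4% in fat and 80.9% in hypothalamus, the matrix protein gene Postn 59.9% and 76.9%, and the collagen I gene Col1a2 36.5% and 49.1%. Microglia markers, several of which tissue macrophages also express, had 35 of 418 sites lower (8.37%) and 0 higher. Tmem119 had 60.0% in fat and 72.6% in hypothalamus and the complement gene C1qb 66.6% and 81.3%. Aif1 differed by -17.1 points in control pools and -3.50 in BPA pools over 5 sites with none called. General leukocyte markers had 25 lower (2.90%) and 9 higher of 863 sites, close to all genes in the lower direction, with Cd79a at 12.54% in fat and 29.9% in hypothalamus, Cd52 at 66.3% and 79.3%, and Ptprc, which encodes CD45, at 53.6% and 42.9%. Weighted by reads these differences were -33.9 points at Cd79a, -20.5 at Cd52 and 26.2 at Ptprc, against -17.3, -12.9 and 10.7 with equal weights. The median gene level in control hypothalamus was 74.2% for endothelial, 78.8% for microglia and 79.3% for leukocyte markers, beside 34.3% over all genes. A site less than 25 points below full methylation there cannot be called higher in fat, which limits the higher counts. How far these cell types contribute to the pools was not tested.

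Regulators of fat cell formation and lipid storage had calls in both directions. Adipogenesis regulators had 87 higher (2.49%) and 192 lower (5.49%) of 3497 sites, beside 1.49% and 3.11% over all genes. Of 20 genes 7 held a lower region and 3 held a higher one, beside 7.04% and 3.88% of all genes. These genes had a median of 124 member sites, beside 54 over all genes, and the part of site number in the region counts was not tested. Prdm16, a regulator of brown and beige fat, carried 86 of the lower and 15 of the higher sites, with 50.2% in fat and 56.9% in hypothalamus over 727 sites. Pdgfrb, a receptor of stromal and mural cells, had 51.7% and 65.4% with 18 lower sites, and Zfp467 46.4% and 42.2%. Weighting by reads gave -2.96 points at Prdm16, against -6.66 with equal weights, and 7.16 at Zfp467, against 4.21. Pparg, the main regulator of adipocyte formation, had 11.1% in fat and 12.6% in hypothalamus with 0 of 69 sites called, a difference whose sign turned to 5.06 points with weighting by reads, and was chosen after its values were seen. Among lipid storage and insulin response genes, with 49 higher (2.43%) and 70 lower (3.48%) of 2014 sites in control pools and 66 higher (3.35%) and 60 lower (3.04%) in BPA pools, Pck1 had 65.6% in fat and 84.0% in hypothalamus. Aqp7, the glycerol channel of adipocytes, had 67.3% and 83.2% with 7 lower sites. Irs2, an insulin receptor substrate, went the other way with 24.9% in fat and 15.4% in hypothalamus, 30 higher and 0 lower sites, and 12.9% in liver. Mesothelium and visceral mesenchyme factors had 93 higher (4.03%) and 61 lower (2.64%) of 2307 sites. In that list Tbx18 had 16.1% in fat and 4.74% in hypothalamus with 13 higher sites (11.4 points, and 6.41 in the gene body alone), whereas Meox1 had 39.8% and 56.4% with 23 lower and Twist2 27.1% and 40.7% with 22 lower.

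Genes of the hypothalamus and of neural cells were called in both directions. Forebrain and hypothalamic transcription factors had 11 higher (0.233%) and 87 lower (1.84%) of 4730 sites, beside 1.49% and 3.11% over all genes. Their median gene level in control hypothalamus was 3.87%, beside 34.3% over all genes, which limits the lower counts. In control fat it was 4.16%, beside 33.0% over all genes. Among these factors, Lhx2, a LIM homeobox factor, had 8.12% in fat and 17.6% in hypothalamus with 29 lower sites. Otx2 (4.16% and 12.1%) and Pax6 (7.63% and 15.5%) were also lower in fat. The difference at Otx2 rested on the flanks, at -7.96 points with them and -0.869 points in the gene body alone. Neuron markers had 55 higher (1.95%) and 97 lower (3.44%) of 2820 sites, close to all genes. Rbfox3, which encodes the neuronal nuclear protein NeuN, had 44.3% in fat and 49.2% in hypothalamus with 52 lower and 9 higher sites. Dlg4, the postsynaptic scaffold PSD-95, had 45.1% and 37.5% with 11 higher sites, and Nefl 14.8% and 23.3%. The difference at Nefl was -8.54 points in control pools and -3.22 in BPA pools, and 3.69 when weighted by reads. Weighting by reads gave 11.5 points at Dlg4, against 7.63 with equal weights, and -2.87 at Rbfox3, against -4.92. Glutamate and GABA receptors had 64 higher (1.64%) and 167 lower (4.28%) of 3905 sites, with Grin1 at 21.4% in fat and 31.4% in hypothalamus, Grik1 at 82.0% and 88.7%, and Grin2d at 16.6% and 23.3%. Grin1 differed by -9.92 points with equal weights and -3.44 weighted by reads.

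Feeding neuropeptides and their receptors had 45 higher (3.70%) and 8 lower (0.658%) of 1215 sites, beside 1.49% and 3.11% over all protein-coding genes. In BPA pools 47 were higher (3.99%) and 15 lower (1.27%) of 1177 sites. The median gene level in control hypothalamus was 20.6%, beside 34.3% over all genes, which limits the lower counts. Ghrh, the growth hormone-releasing hormone made in the arcuate nucleus, supplied 22 of the 45 higher sites in control pools, with 61.0% in fat, 38.0% in hypothalamus and 68.0% in liver. The difference at Ghrh was 23.0 points in control pools and 25.2 in BPA pools. Kiss1, the kisspeptin gene, had 40.5% in fat and 52.4% in hypothalamus, and Npy2r 90.6% and 97.0%. Kiss1 differed by -11.9 points with equal weights and -7.70 weighted by reads. Pomc, the precursor of the satiety peptide alpha-MSH, had 12.6% and 13.1% with 0 called sites and a sign that turned with weighting by reads, and was chosen after its values were seen.

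Glial markers were not of one direction. Over all protein-coding genes 1.49% of sites were called higher and 3.11% lower. Oligodendrocyte markers had 26 higher (3.02%) and 18 lower (2.09%) of 862 sites, and 25 higher and 26 lower in BPA pools, with the myelin genes Cnp (73.0% in fat, 62.4% in hypothalamus) and Cldn11 (43.9% and 33.7%) higher in level in fat, and Myrf at 60.4% and 65.6%. The difference at Cldn11 was 10.2 points with the flanks, 1.45 in the gene body alone and 16.3 weighted by reads. Astrocyte markers had 30 higher (3.46%) and 31 lower (3.58%) of 866 sites, and 32 and 29 in BPA pools. Aldh1l1, a folate enzyme used to mark astrocytes, had 43.5% in fat and 63.6% in hypothalamus with 20 lower sites, and liver, where the enzyme is abundant, was at 40.7%. The glycolytic enzyme gene Aldoc had 47.6% and 38.7%, and Gfap 48.3% and 53.0% with none called. Aldoc differed by 8.93 points with the flanks and 13.97 in the gene body alone, and Gfap by -4.71 points in control pools, -1.03 in BPA pools and -10.1 weighted by reads.

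Markers of the epididymis and testis, which lie beside gonadal fat, and of hepatocytes had calls in both directions. Epididymis and testis markers had 10 higher and 10 lower of 331 sites (3.02% each, beside 1.49% higher and 3.11% lower over all genes). The 10 higher sites were those of Insl3, a hormone of Leydig cells, at 28.7% in fat, 13.8% in hypothalamus and 16.1% in liver, named after its values were seen. The sperm protamine genes Prm1 and Prm2 had 16.4% and 26.5% in fat, against 46.4% and 51.6% in hypothalamus, and liver was at 19.1% and 33.7%, near fat. The Prm2 window takes in Prm1, so their levels share sites and are not separate observations. Lcn5, an epididymal lipocalin, had 79.1% in fat and 94.6% in hypothalamus. Hepatocyte markers had 8 higher (3.39%) and 9 lower (3.81%) of 236 sites, and all 8 higher sites were those of Cps1, a urea cycle enzyme, at 83.9% in fat, 47.1% in hypothalamus and 68.8% in liver. Cyp7a1, the rate-limiting enzyme of bile acid synthesis, had 76.7% and 87.3%, and the fibrinogen gene Fgb 82.1% and 91.2%.

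Whole promoters rarely differed between the tissues. Of 9806 protein-coding promoters with at least 8 member sites within 1 kb of the start 92.5% differed by under 5 points, 13 were at least 25 points higher in fat and 49 at least 25 points lower. The 13 include Iqcj and Iqschfp, which share a start and the same sites. The promoters named here were chosen after their values were seen. Akap6, an anchoring protein of muscle and neurons, had 76.8% in fat and 12.7% in hypothalamus with 11 of 11 sites called, and 76.6% and 14.6% in the BPA pools. Lrrc4, a synaptic adhesion protein of brain, had 81.2% in fat and 24.8% in hypothalamus with 16 of 16 sites called, and 91.0% in liver. Nfia, a nuclear factor I gene of glial development, had 79.5% and 41.5%, the ceramidase gene Asah2 85.7% and 37.0%, Hoxa7 49.3% and 14.6%, and Mapk10, the neuronal kinase JNK3, 39.99% and 9.74%.

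Among the promoters lower in fat, Cldn15, a claudin, had 19.8% in fat and 78.3% in hypothalamus with 8 of 9 sites called. H6pd, which supplies NADPH inside the endoplasmic reticulum, had 37.3% in fat, 85.6% in hypothalamus and 16.4% in liver with 10 of 10 called. Sh3tc1 had 8.24% and 61.6%, with 50.1% in BPA hypothalamus. Dpep1 had 30.2% and 67.9% over 18 sites, of which the printed window holds 9. Acsm3 and Fetub, a liver-secreted fetuin gene, had 44.3% and 36.9% in fat, against 80.3% and 74.3% in hypothalamus, and liver was lowest at 9.17% and 8.95%. Gpsm3, a regulator of G-protein signalling in blood cells, had 11.9% in fat and 48.2% in hypothalamus.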

How the data were processed

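Reads of reduced representation bisulfite libraries were aligned to the build GRCm38 (mm10) by BSMAP, according to the submitters' processing notes. Its version and any removal of PCR copies are not given in the sources used here. The authors deposited 1 table per tissue with a read count and a methylation fraction per CpG, both strands joined, for a pool numbered 0 and a pool numbered 1 of 3 samples each. Per the file headers, the fraction is the methylated share of the covering reads, and methylated reads were rebuilt as fraction times count, rounded. Sites listed have at least 3 reads per pool.

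Member sites had at least 20 reads in both control pools. Fisher's exact test (two-sided) was run per site on pooled reads with Benjamini-Hochberg adjustment over all member sites, and tested on simulated reads. It compares pooled reads, not animals. The tissue difference was compared between BPA and control pools by a Wald test of log odds ratios with 0.5 added to each cell of reads. Python 3.11.15, numpy 2.4.6, pandas 2.3.3, scipy 1.17.1, numba 0.67.0 and matplotlib 3.10.9 were used. Gene names, positions and promoter sequences came from RefSeq tables of GRCm38.p6. They give a start for 16457 of 20665 protein-coding genes on chromosomes 1 to 19. Of 411 entries in 18 gene lists 406 matched a gene on these chromosomes. Gene levels are unweighted means over member sites in the body and 5 kb on either side, with at least 5 sites. No difference for the gene body alone is available for Retn, Mcts2, Icam2, Postn, C1qb, Cd79a, Cd52, Nefl, Prm2 and Lcn5. The part of the flanks in the levels of these genes is not known.

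Regions named are the 12 per direction with the largest summed difference in or within 5 kb of a protein-coding gene, and up to 3 genes per list with the largest difference. A region within this rule is not reported here. Members, lists and rules were chosen with earlier results of these data known. Alternatives tried were read minimum, size of difference, depth, adjustment, scaling by excess spread, region settings, site weights and gene window.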

Additional observations from a re-analysis of the deposited data

Results flagged for a closer look

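The tissue difference itself differed between BPA and control pools at 81 of 1328862 sites, by a Wald test of the difference with adjusted p under 0.05 and a change of at least 25 points. Of these, 27 were called between the control pools, beside 5.05% of all member sites. The control values took part in choosing the 81 sites, so this count is not free of the choice. The smallest p belonged to a site at 80224794 on chromosome 7, within 5 kb of or in Cib1 and Sema4b, where fat minus hypothalamus was -15.8 points in BPA pools and 20.8 in control pools, a change of -36.6 points (49.5% against 65.3% in BPA pools, 76.7% against 55.9% in control pools). At 93195798 on chromosome 2, at Trp53i11, the difference was 27.0 points in BPA and 1.5 in control pools, a change of 25.5 points. At 41587717 on chromosome 3, at Jade1, it was -13.0 in BPA and -44.2 in control pools, a change of 31.2 points. These tests compare pooled reads, with counting error only.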

How the results depend on the processing

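Called sites between control fat and hypothalamus numbered 175957 at 10 points, 17515 at 40 points and 39447 with Bonferroni adjustment, and between BPA pools 177025, 16942 and 40995. The excess over counting error between pools of 1 tissue was taken from BPA against control (2.14 in fat, 1.22 in hypothalamus). Scaling by it, with a normal test in place of Fisher's test, left 63105 control calls. Within fat, BPA against control gave 891 calls at 10 reads, 136 at 50 reads, 6834 at 10 points, 31 at 40 points, 4 with scaling and 34 with Bonferroni. Within hypothalamus it gave 45 at 10 points, 2 at 40 points, and 0 with scaling, with Bonferroni and without the deepest 0.1% of sites. The scaled counts within a tissue cannot decide on differences with BPA, because the scale came from the same contrast. Regions numbered 7904 with at least 3 called sites, 407 with at least 10, 8678 at 10 points and 614 at 40 points. The mean difference was 2.94 points weighted by reads, 2.69 so weighted without the deepest 0.1% of sites, -1.79 weighted by the reads of both pools together, -2.02 at 50 reads and -2.22 in BPA pools. The 2.69 and -1.79 point settings were chosen after seeing the data. The cause of the sign change was not tested.

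Weighting by reads turned the sign of list medians to 0.766 for all genes, 2.30 for adipogenesis, 1.49 for lipid storage, 0.181 for forebrain factors, 2.41 for neurons, 0.270 for feeding neuropeptides, 0.746 for glutamate and GABA receptors and 0.885 for oligodendrocytes. Gene bodies alone turned it to 0.362 for forebrain factors, -0.382 for astrocytes and 1.33 for epididymis and testis. The 23 named regions kept their sign in BPA pools and with weighting by reads. No paired analysis was possible because the tables hold pools, and no replicate could be left out for the same reason. The least covered 5% of sites had at most 53 reads in fat or 25 in hypothalamus, and small differences there were not detectable at this depth.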

Other observations

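Of the regions that could be read in the BPA pools, 938 higher and 2080 lower in fat, 1 had the other sign there, at 1500009L16Rik (chr10:83726279-83726323, 5 sites). Its levels were 31.7% in control fat and 65.6% in control hypothalamus, and 34.9% in BPA fat and 33.3% in BPA hypothalamus, with 74.2% in control liver. The median depth of its sites was 125 reads in control fat and 32 in control hypothalamus.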
